A study of Mus musculus with 18 samples.

Results

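The retinoic acid receptors (Rara, Rarb and Rarg) and the retinoid X receptors (Rxra, Rxrb and Rxrg) were examined in the frontal cortex of newborn mice, 6 genes chosen by symbol from the 54532 of the deposited table, each with 1 identifier. RNA was sequenced from double mutants of Rxrg and Rarb, called dKO here, and from control pups, all at postnatal day 0. Tissue came from 3 regions that the labels call orbital, medial and dorsal, which gave 6 groups of 3 libraries: orbital dKO, orbital control, medial dKO, medial control, dorsal dKO and dorsal control. Dissection in the design text covered orbitofrontal, motor and medial frontal cortex, and no label links its terms to the 3 names, so dorsal is used here as a name only. The labels name the controls as control only, and the exons altered in either gene, the strain, the number of animals behind a library, their sex and their litters are not given, so p-values measure the spread between these samples, which may be technical in part.

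Retinoic acid is made from vitamin A inside cells and acts in the nucleus. RAR proteins bind it and sit on DNA as pairs with an RXR protein, which is the shared partner also of thyroid hormone, vitamin D and several other nuclear receptors. Without ligand such a pair recruits corepressors, and with ligand it recruits coactivators. In the developing forebrain retinoic acid comes largely from the meninges, and Rarb is both a receptor and a gene that retinoic acid itself induces.

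The promoter of Rarb is shown first, since it holds the classical retinoic acid response element of a gene that was targeted in these mice. The RefSeq promoter window of Rarb (GRCm38.p6, chr14:16575427-16575726, minus strand, 250 bases before to 50 bases after the start site of the listed transcript) reads as follows, 5′ to 3′, with the 2 repeat units of the response element in capitals.
Rarb promoter: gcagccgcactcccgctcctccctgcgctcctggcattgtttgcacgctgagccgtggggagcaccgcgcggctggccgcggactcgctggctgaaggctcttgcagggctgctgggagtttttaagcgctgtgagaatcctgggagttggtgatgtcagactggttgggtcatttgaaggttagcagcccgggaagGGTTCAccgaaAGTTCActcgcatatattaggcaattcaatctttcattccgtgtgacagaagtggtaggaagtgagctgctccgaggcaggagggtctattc
The element itself is 17 bases long, lies at chr14:16575513-16575529 on the strand of the gene, and begins 53 bases before the start site. Both units run in the same direction with 5 bases between them, the arrangement called DR5.

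Promoter windows of all genes were searched on both strands for 2 such units in direct repeat, a unit being AGGTCA or a variant of it, namely AGTTCA, the variant GGGTCA or the variant GGTTCA. DR1 and DR2 have 1 and 2 bases between the units. A DR5 was present in 32 of 32851 windows (0.0974%), a DR1 in 0.222% and a DR2 in 0.268%, and matches of the 3 spacings could overlap. Of the 13 windows of the 6 members, the Rarb window held the DR5 above and no other held any of the 3 repeats. The motif GGTTCANNNNNAGTTCA of the Rarb element occurred in 2 windows of all genes (0.00609%). For comparison, the window of Cyp26a1, which encodes an enzyme that degrades retinoic acid and is a known target of the receptors, held a DR5 on the other strand from its gene at chr19:37697776-37697792.
Rarb element: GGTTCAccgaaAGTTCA
Cyp26a1 element: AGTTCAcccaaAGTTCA
These matches describe letters in a window and say nothing of binding in these samples.

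How far sequencing reads could tell the 6 members apart was read from the most conserved part of the genes, the codons of the DNA-binding domain. The first zinc finger is shown for each member from the GENCODE M21 transcripts (GRCm38), from its first to its last zinc-binding cysteine codon, with the positions that differ among the 3 members of a family in capitals.
Rara: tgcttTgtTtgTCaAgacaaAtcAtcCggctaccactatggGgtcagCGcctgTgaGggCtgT
Rarb: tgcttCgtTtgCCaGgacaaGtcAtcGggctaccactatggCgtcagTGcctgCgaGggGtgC
Rarg: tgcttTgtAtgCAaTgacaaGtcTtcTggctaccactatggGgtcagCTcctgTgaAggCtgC
Rxra: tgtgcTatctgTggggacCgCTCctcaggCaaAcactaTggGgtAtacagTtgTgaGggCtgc
Rxrb: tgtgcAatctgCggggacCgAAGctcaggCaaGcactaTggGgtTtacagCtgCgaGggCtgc
Rxrg: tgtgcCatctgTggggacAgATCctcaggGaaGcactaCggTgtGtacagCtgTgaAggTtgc
In each family 15 of these 63 positions differed. Over the 168 bases of the whole zinc finger region, members of a family shared 79.2% to 86.3% of bases and members of different families 60.1% to 64.3%. The longest stretch that any 2 of the 6 genes had in common in their transcripts was 29 bases, against reads of 100 bases. Reads of 1 member are therefore not identical to another member over their whole length.

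In the files' GRCm38 coordinates, Rara (ENSMUSG00000037992) lies on chromosome 11 from 98927818 to 98974942, plus strand. Rarb (ENSMUSG00000017491) lies on chromosome 14 from 16430839 to 16819156, minus strand, so the promoter shown above is inside the annotated span. Rarg (ENSMUSG00000001288) lies on chromosome 15 from 102234938 to 102257517, minus strand. Rxra (ENSMUSG00000015846) is on chromosome 2 from 27676440 to 27762957, plus strand. Rxrb (ENSMUSG00000039656) is on chromosome 17 from 34031812 to 34038393, plus strand. Rxrg (ENSMUSG00000015843) is on chromosome 1 from 167598384 to 167639623, plus strand. Counting ignored strand, and of the 5265 exon bases of Rarb 2020 (38.4%) are shared with other genes, 1793 of them with Top2b, which runs the opposite way, and 227 with Gm48162. Reads from those bases cannot be assigned to a strand, whereas the other 5 members share no exon base with another gene.

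Libraries held 28957325 to 93093398 fragments in genes. Title prefixes and index sequences placed them in 3 sets, A, B and C (replicates 1, 2 and 3), each with 1 dKO and 1 control row of 3 regions. Set A has another title prefix than sets B and C. It was also deeper, with at least 52317649 fragments per library against at most 39158792 in sets B and C. Sex-linked transcripts differed between the genotypes in 2 of 3 sets. Xist, transcribed in females, had 9.45 CPM (fragments per 1000000 counted) or more in the dKO rows of sets A and C, and no other row passed 0.155 CPM. Ddx3y, a gene of the Y chromosome, had at most 0.203 CPM in those dKO rows, 104 to 119 CPM in the dKO row of set B and 58.3 to 88.1 CPM in all control rows. Sex is therefore partly confounded with genotype in each comparison of dKO with control, and set B alone has a dKO and a control row alike in these genes. The cortical projection neuron markers Tbr1 and Neurod6 were present in every library, at 177 CPM or more in dKO and 166 CPM or more in controls. Markers of striatal projection neurons, cells known to express Rarb and Rxrg, summed to 100 to 190 CPM in dKO and 107 to 209 CPM in controls over 12 genes. Meningeal fibroblast markers, 10 genes, summed to 1421 to 2561 CPM in dKO and 560 to 4209 CPM in controls, with all 10 at 1 CPM or more in every library. Defining markers of these lists were above 0 in every library, and the levels that move with a receptor are given beside it.

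The 2 targeted genes are described first. Rarb transcript was lower in dKO than in control in all 9 pairs of the same set and region, and Rxrg transcript in 8 of 9, yet neither gene was lost from the counts. The share that remained differed between sets and was largest in set A for both genes. Since the altered exons are not given, counts over the whole gene do not show how much of the remaining transcript is functional.

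Rarb in orbital tissue had 4.85, 3.15 and 2.29 CPM in dKO libraries (sets A, B and C in this order, here and below), against 7.39, 13.9 and 6.20 CPM in controls. In medial tissue it had 2.96, 1.42 and 1.19 CPM in dKO and 3.5, 4.74 and 5 CPM in control libraries. In dorsal tissue Rarb had 3.10, 2.25 and 2.26 CPM in dKO and 3.5, 5.53 and 5.29 CPM in control libraries. Every dKO library thus lay below every control library of its region, although the gap between the highest dKO and the lowest control was narrow in medial and dorsal tissue, where both of these libraries belonged to set A. Groups did not overlap with dKO lower for 8.47% of all 18730 genes tested in orbital tissue, 6.47% in medial tissue and 3.09% in dorsal tissue, and 2.21% of genes were lower in all 9 pairs.

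In the edgeR test across all genes Rarb did not pass in any region (a call is a Benjamini-Hochberg adjusted p under 0.05 over all genes tested), and several alternatives did call it. The log2 fold change, dKO over control, was -1.44 in orbital tissue (SE 0.365, edgeR adjusted p = 0.148), -1.37 in medial tissue (SE 0.372, edgeR adjusted p = 0.0686) and -0.98 in dorsal tissue (SE 0.365, edgeR adjusted p = 0.597). With the 3 regions of a row summed it was -1.33 (SE 0.313, 95% interval -2.04 to -0.61, edgeR adjusted p = 0.365), a fold of 0.399. Its unadjusted p was among the lowest 0.774% of genes in orbital tissue and 0.737% in the summed data. DESeq2 called Rarb in orbital tissue (adjusted p = 0.0193), in medial tissue (adjusted p = 0.0116) and in the summed data (adjusted p = 0.00602), and limma-voom called it in none (adjusted p = 0.125 to 0.773). Of all genes DESeq2 called 430 in orbital, 1118 in medial and 359 in summed data, against 7, 389 and 5 with edgeR. Rarb was also called in medial tissue with the set as a block (edgeR adjusted p = 0.0476) and without the dKO row of set A (edgeR adjusted p = 0.0341), and in orbital (edgeR adjusted p = 0.0325) and medial tissue (edgeR adjusted p = 0.0257) without the control row of set A. In the order given, these 4 fits called 662, 70, 159 and 378 of all genes. In bulk tissue, fewer cells with a transcript and less transcript per cell cannot be told apart.

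Within sets the dKO libraries kept 65.6% to 88.8% of the Rarb CPM of their control in set A, 22.7% to 40.7% in set B and 23.8% to 42.7% in set C. The set A difference, dKO minus control on the log2 scale, was -0.72 in orbital tissue, -0.42 in medial tissue and -0.32 in dorsal tissue. In set B the same differences were -2.04, -1.76 and -1.3, and in set C -1.39, -2.04 and -1.21. Without set A the log2 fold change was -1.81 in orbital tissue, -1.93 in medial tissue and -1.27 in dorsal tissue, and without set B it was -0.98, -1.19 and -0.79. Set A also differed from the other sets in title prefix and depth, and these cannot be told apart.

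Whether fragments on the shared bases entered the Rarb counts or were left out was not examined. Top2b, a topoisomerase gene that runs the opposite way, had 374 to 550 CPM in dKO and 223 to 588 CPM in control libraries, far above the 1.19 to 13.9 CPM of Rarb. The part of antisense reads in the Rarb counts was not tested. Divided by the 3245 exon bases that Rarb alone covers in place of all its exon bases, the Rarb level was 0.804 ± 0.335 FPKM in dKO and 1.88 ± 0.974 FPKM in control libraries (fragments per 1000 bases per 1000000 fragments, SD, n = 9 each). This division holds only if no counted fragment came from the shared bases.

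Rxrg had 2.90, 1.61 and 0.408 CPM in the orbital libraries labelled dKO of sets A, B and C, against 2.35, 21.4 and 4.01 CPM in orbital controls. In medial tissue it had 1.15, 1.69 and 0.377 CPM in dKO and 2.05, 6.11 and 2.86 CPM in control libraries. In dorsal tissue Rxrg had 1.05, 1.33 and 0.691 CPM in dKO and 1.64, 30.5 and 3.37 CPM in control libraries. Groups did not overlap in medial and dorsal tissue, and in orbital tissue they overlapped through set A, where the library labelled dKO was above its control. That library had the sex-linked transcripts of the dKO rows of sets A and C (Xist at 9.45 CPM or more, Ddx3y at most 0.203 CPM). Its control had those of all control rows (Xist at most 0.155 CPM, Ddx3y 58.3 to 88.1 CPM). Libraries alike to the first in these genes were all labelled dKO, and those alike to the second were controls or the dKO row of set B. The labels do not settle whether either was exchanged with such a library, and this was not tested. The set A library labelled dKO enters every orbital dKO value given here, so the orbital values of Rarb, Rxrg, Rarg and Rxra are also given without set A. At least 8 of 9 pairs were lower in dKO for 6.41% of all genes.

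The Rxrg controls spread more widely than those of any other member, between 1.64 and 30.5 CPM. The 2 highest values, 21.4 and 30.5 CPM, were orbital and dorsal tissue of the set B control row, whose medial tissue had 6.11 CPM. Behind the values stood 92 to 883 fragments per control library and 13 to 153 per dKO library, with 13 in both orbital and medial dKO tissue of set C. Striatal projection neuron markers had their highest sums in the set B control row, at 209, 201 and 203 CPM in orbital, medial and dorsal tissue. In the set B dKO row they summed to 105, 100 and 158 CPM, and in the other control rows to 107 to 173 CPM. The part of these cells in the Rxrg values was not tested.

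The log2 fold change of Rxrg, dKO over control, was -2.12 in orbital tissue (SE 1.01, edgeR adjusted p = 0.361), -1.75 in medial tissue (SE 0.977, edgeR adjusted p = 0.435) and -3.34 in dorsal tissue (SE 1.03, edgeR adjusted p = 0.513). With no filter on low counts the dorsal difference was called (-3.31, edgeR adjusted p = 0.015), in a fit that called 26 genes. With regions summed it was -2.50 (SE 0.887, 95% interval -4.54 to -0.46, edgeR adjusted p = 0.479), a fold of 0.176. The set B control row decided the size: without it the log2 fold change was -1.31 in dorsal, -0.95 in orbital and -1.23 in summed data. Without the dKO row of set A it was -3.52 in orbital and -3.45 in summed data, and without both rows of set A -3.57 in orbital tissue. The dKO libraries held 55.9% to 123% of the Rxrg CPM of their control in set A, 4.35% to 27.6% in set B and 10.2% to 20.5% in set C.

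**Figure D1:**
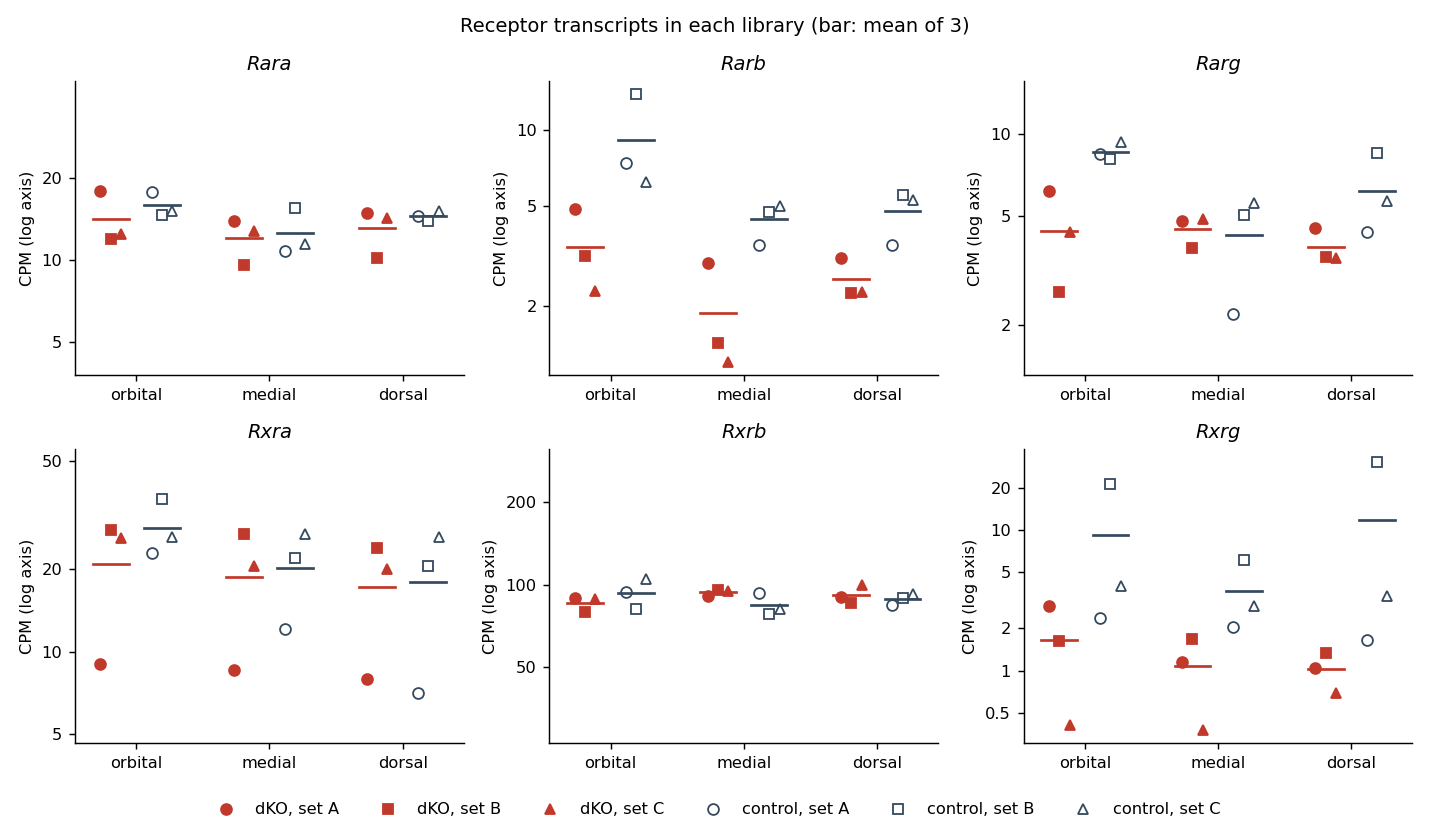
Level in CPM of the 6 receptor genes in each of 18 libraries, on log axes that differ between panels; filled red symbols are dKO, open blue symbols are control, the symbol shape gives the set, and the bar is the mean of 3 libraries. Rarb lies lower in dKO in every region, the Rxrg controls of set B stand above the others at 21.4 CPM in orbital and 30.5 CPM in dorsal tissue, and Rxrb stays between 78.3 and 105 CPM throughout.

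The 4 receptors that were not targeted were compared to see whether any was higher where Rarb and Rxrg were lower. No untargeted member was called in any region or in the summed data, and in no region did any of them have all dKO libraries above all control libraries, an arrangement that 5.56% of genes showed in orbital tissue, 11.7% in medial tissue and 7.03% in dorsal tissue. Rxrb, the most abundant member, and Rara stayed close to their control levels. Rarg and Rxra had lower means in dKO orbital tissue.

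Rara, the broadly expressed RAR, had 17.9, 12.0 and 12.5 CPM in orbital dKO libraries and 17.8, 14.6 and 15.2 CPM in orbital controls. In medial tissue it had 13.9, 9.60 and 12.8 CPM in dKO and 10.8, 15.5 and 11.5 CPM in control libraries, and in dorsal tissue 14.9, 10.2 and 14.3 CPM in dKO and 14.5, 13.9 and 15.1 CPM in control libraries. Groups overlapped in every region, and the dKO level was lower in 5 of 9 pairs in CPM, while after TMM scaling of the libraries it was lower in 2 pairs of set A, 3 of set B and 2 of set C. Its log2 fold change was -0.18 in orbital tissue, -0.16 in medial tissue and -0.21 in dorsal tissue, and -0.20 with regions summed (SE 0.186, 95% interval -0.62 to 0.23, edgeR adjusted p = 0.818).

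Rarg, whose product is best known from skin and skeleton, had 6.18, 2.63 and 4.39 CPM in orbital dKO libraries of sets A, B and C and 8.47, 8.08 and 9.33 CPM in orbital controls. In medial tissue it had 4.80, 3.82 and 4.90 CPM in dKO and 2.19, 5.05 and 5.59 CPM in control libraries, and in dorsal tissue 4.53, 3.55 and 3.52 CPM in dKO and 4.36, 8.50 and 5.67 CPM in control libraries. All 3 orbital dKO libraries lay below all 3 orbital controls, while groups overlapped in medial and dorsal tissue. The log2 fold change was -0.97 in orbital tissue (SE 0.345, unadjusted p = 0.0123, edgeR adjusted p = 0.232), 0.03 in medial tissue (SE 0.345, edgeR adjusted p = 0.987) and -0.71 in dorsal tissue (SE 0.345, edgeR adjusted p = 0.751). Without set A the orbital value was -1.25. With regions summed it was -0.63 (SE 0.253, 95% interval -1.21 to -0.05, edgeR adjusted p = 0.521).

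Meningeal fibroblast markers moved with Rarg and Rarb in orbital tissue. Their sum was 2561, 1549 and 2291 CPM in orbital dKO libraries of sets A, B and C, against 2906, 4209 and 3835 CPM in orbital controls, and the single markers Slc6a13 (54.7 to 90.0 CPM in dKO, 135 to 219 CPM in control) and Col1a1 (158 to 430 CPM in dKO, 483 to 540 CPM in control) did not overlap either. The remaining defining marker, Lum, did overlap (25.3 to 48.6 CPM in dKO, 34.6 to 63.0 CPM in control). All 10 markers had a negative log2 fold change in orbital tissue, with a median of -0.72 against -0.03 for all genes, and none was called. In medial tissue 6 of 10 were positive (median 0.18) and in dorsal tissue 8 of 10 (median 0.32), with none called. Rarb was negative in both regions (-1.37 and -0.98), and Rarg was 0.03 and -0.71. Dorsal meningeal sums were 1726 to 2389 CPM in dKO and 1184 to 1787 CPM in control libraries. In medial tissue the lowest Rarg control, 2.19 CPM in set A, was also the library with the lowest meningeal sum, 560 CPM. Microglia markers, 10 genes, summed to 192 to 288 CPM in orbital dKO and 319 to 369 CPM in orbital control libraries. Their defining markers overlapped there, Cx3cr1 with 3.07 to 13.9 CPM in dKO and 4.95 to 20.4 CPM in control libraries. P2ry12 had 5.4 to 6.52 CPM in dKO and 5.0 to 13.3 CPM in control libraries. All 10 microglia markers were positive in medial tissue (median 0.41) and 7 of 10 in dorsal tissue (median 0.20). The part of these cell types in the Rarg and Rarb differences was not tested.

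Rxra, a partner of RAR proteins in many tissues, had 8.98, 27.8 and 26 CPM in orbital dKO libraries of sets A, B and C and 23, 36.1 and 26.2 CPM in orbital controls. In medial tissue it had 8.54, 27 and 20.6 CPM in dKO and 12.1, 22 and 26.9 CPM in control libraries, and in dorsal tissue 7.92, 23.9 and 20 CPM in dKO and 7.06, 20.5 and 26.4 CPM in control libraries. The sets differed more than the genotypes: 5 of the 6 libraries of set A had 7.06 to 12.1 CPM, its orbital control had 23 CPM, and sets B and C had 20 to 36.1 CPM. The log2 fold change was -0.64 in orbital tissue (SE 0.265, 95% interval -1.21 to -0.08, edgeR adjusted p = 0.294) and rested on set A, without which it was -0.14. It was -0.28 in medial, -0.07 in dorsal and -0.40 in summed data (SE 0.213, 95% interval -0.89 to 0.09, edgeR adjusted p = 0.630), and -0.13 in the summed data without set A.

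Rxrb, which encodes the RXR found in nearly all tissues, had 89.6, 79.4 and 88.7 CPM in orbital dKO libraries and 93.7, 81.0 and 105 CPM in orbital controls. In medial tissue it had 90.5, 95.8 and 94.6 CPM in dKO and 93.1, 78.3 and 81.1 CPM in control libraries, and in dorsal tissue 90.3, 85.5 and 99.9 CPM in dKO and 84.0, 89.6 and 92.5 CPM in control libraries. Groups overlapped in every region. The log2 fold change was -0.12 in orbital tissue, 0.07 in medial tissue and -0.00 in dorsal tissue, and -0.03 with regions summed (SE 0.143, 95% interval -0.36 to 0.30, edgeR adjusted p = 0.976).

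Over the 6 members, edgeR called 0 in orbital tissue (0.0374% of all genes called), 0 in medial tissue (2.08%), 0 in dorsal tissue (0.0214%) and 0 with regions summed (0.0249% of 20083 genes). At an unadjusted p under 0.05 there were 3 members in orbital (Rarb, Rarg and Rxra, 13.9% of all genes), 1 in medial (Rarb, 15% of all genes), 2 in dorsal (Rarb and Rxrg, 6.78%) and 3 in the summed data (Rarb, Rarg and Rxrg, 9.03%). Limma-voom called 0 members in each of these comparisons, and DESeq2 called 1 in each but the dorsal one, in every case Rarb. Of all genes limma-voom called 7, 493, 3 and 3 in orbital, medial, dorsal and summed data, and DESeq2 430, 1118, 81 and 359. The upper ends of the 95% intervals in the summed data were 1.17-fold for Rara, 0.968-fold for Rarg, 1.06-fold for Rxra and 1.23-fold for Rxrb, dKO over control. Single regions left more room. Their highest upper ends were 1.215-fold for Rara, 1.69-fold for Rarg and 1.3-fold for Rxrb, each in medial tissue, and 1.4-fold for Rxra in dorsal tissue. A p that misses the threshold does not show that levels were the same, and these intervals give the sizes of increase that the data leave room for.

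**Figure D2:**
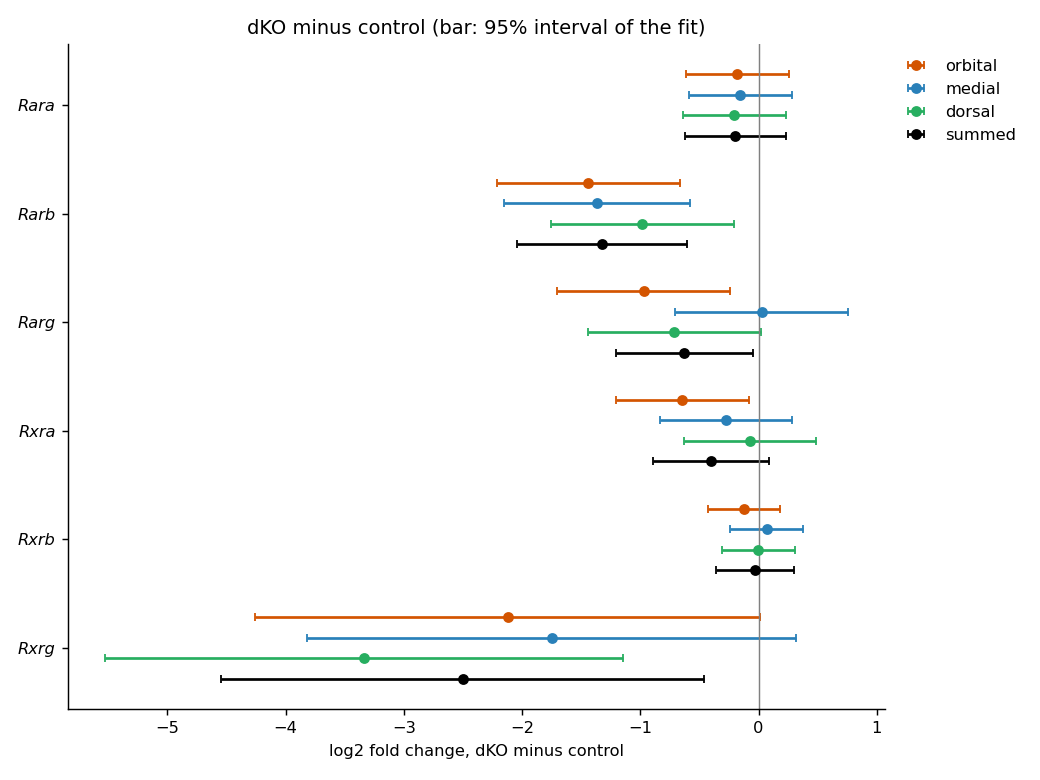
Log2 fold change of each receptor gene, dKO over control, in orbital, medial and dorsal tissue and with the regions of a row summed; points are estimates of the edgeR fit and bars their 95% intervals. The intervals of Rarb lie below 0 in all 4 comparisons, with a summed value of -1.33, those of Rxrg are the widest, and those of Rxrb lie within -0.43 and 0.38.

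**Figure D3:**
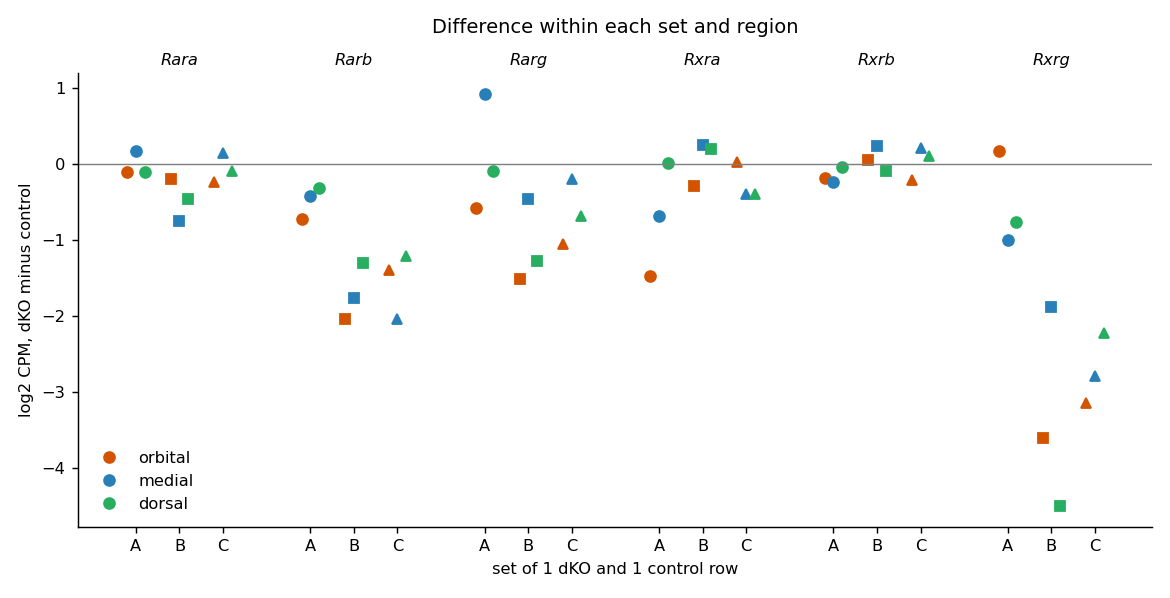
Difference in log2 CPM, dKO minus control, within each set and region for the 6 receptor genes; colour gives the region, and each set holds 1 dKO and 1 control row. Rarb lies below 0 in 9 of 9 and Rxrg in 8 of 9 pairs, with the smallest differences of both genes in set A, and the points of Rxrb lie closest to 0.

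Levels of different members were compared per exon length, in FPKM. In dKO libraries the order of mean levels was Rxrb (24.5 FPKM), Rxra (3.48), Rara (3.01), Rarg (0.999), Rxrg (0.542) and Rarb (0.495). In control libraries it was Rxrb (24 FPKM), Rxra (4.07), Rxrg (3.59), Rara (3.28), Rarg (1.49) and Rarb (1.16). The place of Rarb depended on the length used. By its unshared exon bases it had 0.804 FPKM in dKO libraries, above Rxrg, and 1.88 FPKM in control libraries, above Rarg. Rxrb stood apart from all others in each library, at 21.5 to 27 FPKM in dKO and 21.2 to 28.3 FPKM in control libraries. The next levels were not separate from their neighbours: Rxra had 1.45 to 5.09 FPKM in dKO and 1.29 to 6.60 FPKM in control libraries, and Rara had 2.20 to 4.10 FPKM in dKO and 2.47 to 4.07 FPKM in control libraries. Rarg (0.618 to 1.45 FPKM in dKO, 0.514 to 2.19 FPKM in control) likewise overlapped with Rarb (0.226 to 0.921 FPKM in dKO, 0.664 to 2.64 FPKM in control). Rxrg had 0.164 to 1.26 FPKM in dKO and 0.715 to 13.3 FPKM in control libraries, with the set B controls above the rest and a median over the 9 controls of 1.47 FPKM.

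Summed over the 3 RAR genes, the level was 4.50 ± 0.922 FPKM in dKO and 5.94 ± 1.34 FPKM in control libraries (SD, n = 9 each). By region the RAR sum was 4.93 ± 1.35 FPKM in orbital dKO and 7.40 ± 0.528 FPKM in orbital control, 4.18 ± 0.763 in medial dKO and 4.73 ± 1.01 in medial control, and 4.40 ± 0.743 in dorsal dKO and 5.68 ± 0.619 in dorsal control libraries. Of the difference in means of -1.44 FPKM over all libraries, Rarb made up -0.67 and Rara and Rarg together -0.77. Rara held 66.9% ± 2.67 of the RAR sum in dKO and 56.6% ± 8.22 in control libraries. Rarb held 10.8% ± 3.03 in dKO and 18.9% ± 5.71 in control libraries. The RAR sums, shares and ratios here and below divide by all exon bases of Rarb. By its unshared bases the Rarb mean was 0.804 FPKM in dKO and 1.88 FPKM in control libraries. That gap is wider than the -0.77 of Rara and Rarg together.

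The RXR sum was 28.5 ± 1.92 FPKM in dKO and 31.7 ± 5.35 FPKM in control libraries, and most of the difference in means of -3.16 FPKM was that of Rxrg (-3.05), while Rxra and Rxrb together differed by -0.11. These values rest on the control row of set B: without it the difference was -1.16 FPKM for the RXR sum and -0.64 for Rxrg, and without its dorsal library alone -1.96 for the RXR sum and -1.84 for Rxrg. Rxrb held 86.0% ± 4.87 of the RXR sum in dKO and 77.3% ± 11.9 in control libraries, and Rxrg 1.93% ± 1.25 in dKO and 9.98% ± 10.8 in control libraries. The ratio of the RXR sum to the RAR sum was 6.59 ± 1.52 in dKO and 5.48 ± 1.10 in control libraries. Libraries of a row are not independent, and these sums and shares are given as descriptions with no test.

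**Figure D4:**
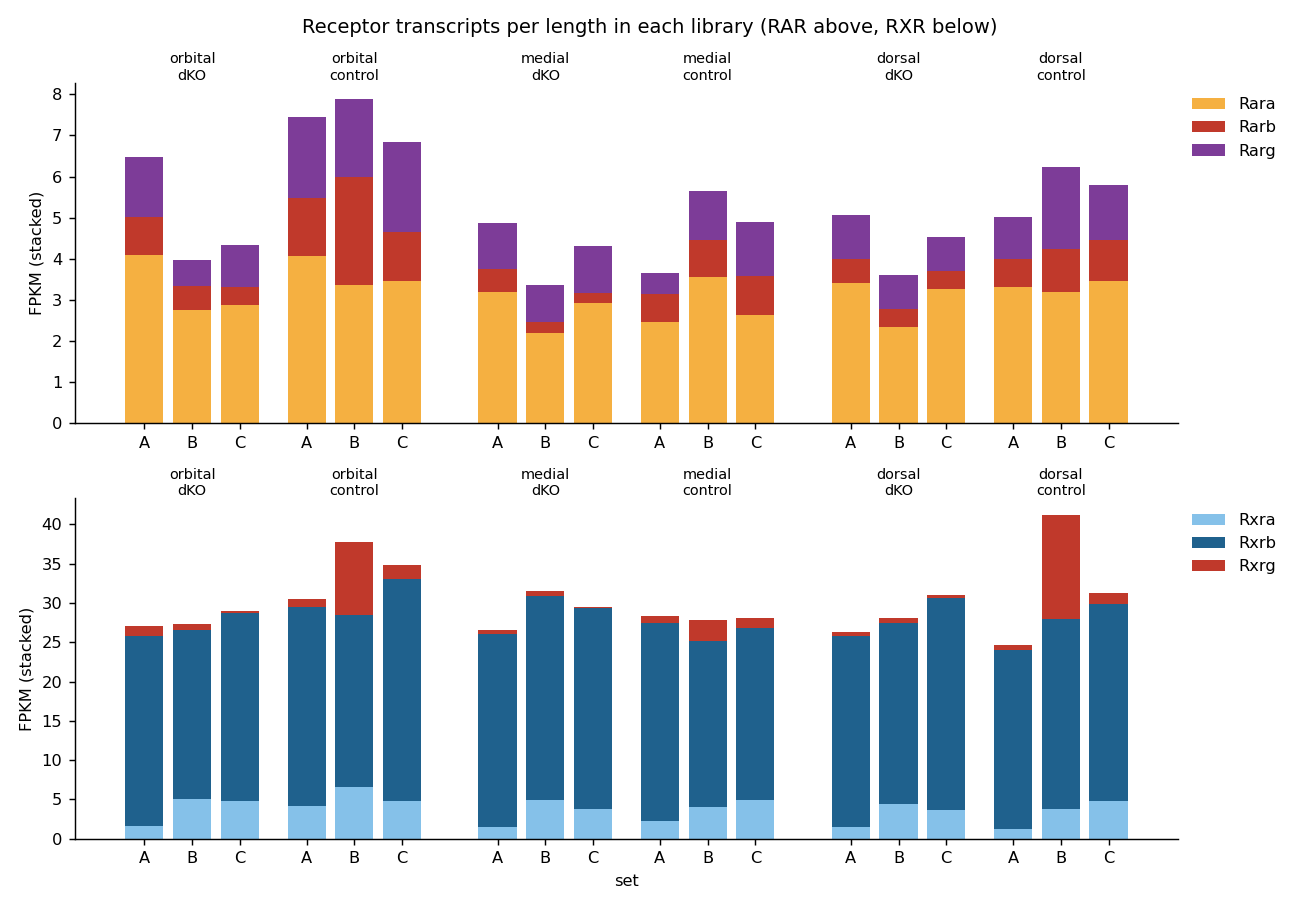
Level per exon length (FPKM) of the RAR genes, above, and the RXR genes, below, stacked for each library, with dKO left of control in each region and sets A, B and C from left to right. Rara makes up most of the RAR stack and Rxrb most of the RXR stack in every library, apart from the orbital control of set B, where Rara is 42.5% of the RAR sum, and the Rxrg layer is thick only in set B controls.

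Regions were compared within each genotype, with the 3 regions of a row as a block. In controls Rarb was highest in orbital tissue and Rarg and Rxra also had their highest means there, whereas Rara and Rxrb varied little between regions. In dKO no member differed between regions past the threshold.

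In controls Rarb rose in orbital over dorsal tissue, with 9.16 ± 4.14 CPM in orbital and 4.77 ± 1.11 CPM in dorsal controls (SD, n = 3 each, log2 fold change 0.80, SE 0.246, edgeR adjusted p = 0.0415). Rxra also rose, with 28.4 ± 6.80 CPM in orbital and 18 ± 9.90 CPM in dorsal controls (log2 fold change 0.73, SE 0.226, edgeR adjusted p = 0.0431). In that comparison 2 of 6 members and 15.8% of all genes were called, and no further member had an unadjusted p under 0.05 (30.2% of all genes). Between medial and orbital controls 2 members and 9.02% of genes were called, and at an unadjusted p under 0.05 there were 3 members, with Rxra (24.3% of all genes). Rarb fell in medial tissue, with 4.41 ± 0.799 CPM in medial and 9.16 ± 4.14 CPM in orbital controls (log2 fold change -0.93, SE 0.246, edgeR adjusted p = 0.0333). Rarg fell too, with 4.28 ± 1.83 CPM in medial and 8.63 ± 0.638 CPM in orbital controls (log2 fold change -1.06, SE 0.279, edgeR adjusted p = 0.0327). Between medial and dorsal controls edgeR called 0 members (0.491% of all genes), with 1 at an unadjusted p under 0.05, Rarg (9.36% of all genes), and DESeq2 and limma-voom called 0.

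These 4 calls were close to the threshold. Without the row as a block none was called (edgeR adjusted p = 0.119 to 0.226). Leaving out the control row of set A or of set B ended all 4, as did leaving out the dKO row of set A, which holds no library of these comparisons but adds to the estimate of the spread (edgeR adjusted p = 0.0624 to 0.0837). Rxra rested on the control row of set A: without it the orbital over dorsal log2 fold change was 0.30. Rarg in medial over orbital tissue was -0.63 without the same row. Meningeal and microglia markers moved with these differences. In orbital over dorsal controls 6 of 10 meningeal and 7 of 10 microglia markers were called higher, in medial over orbital controls 6 and 5 of 10 were called lower, and their part was not tested.

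In dKO, edgeR called 0 members in orbital over dorsal (0.486% of all genes called), medial over orbital (0.016%) and medial over dorsal tissue (2.09%), and DESeq2 and limma-voom called 0 in each. At an unadjusted p under 0.05 there were 0 members in orbital over dorsal (7.26% of all genes), 1 in medial over orbital (7.29%) and 1 in medial over dorsal tissue (17.8%), Rarb both times. Rarb had 3.43 ± 1.3 CPM in orbital, 1.86 ± 0.965 CPM in medial and 2.54 ± 0.491 CPM in dorsal dKO libraries. Its medial over orbital log2 fold change in dKO, -0.92 (SE 0.258, edgeR adjusted p = 0.363), was of nearly the same size as in controls, -0.93.

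Over all 6 groups, the Rarb means in descending order were those of orbital control (9.16 CPM), dorsal control (4.77), medial control (4.41), orbital dKO (3.43), dorsal dKO (2.54) and medial dKO (1.86). Each neighbour below orbital control was within the larger SD of its pair. For Rarg the order was orbital control (8.63 CPM), dorsal control (6.17), medial dKO (4.50), orbital dKO (4.40), medial control (4.28) and dorsal dKO (3.87), and neighbours in the last 4 were closer than the larger SD of their pair. For Rxrg the 3 controls had the highest means (11.8 CPM in dorsal, 9.24 in orbital and 3.67 in medial tissue), followed by orbital (1.64), medial (1.07) and dorsal dKO (1.02), and the SDs of the dorsal and orbital controls, 16.2 and 10.5 CPM, were larger than their means. The 6 means of Rara lay between 12.1 and 15.9 CPM, those of Rxra between 17.3 and 28.4 CPM and those of Rxrb between 84.2 and 93.6 CPM.

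**Figure D5:**
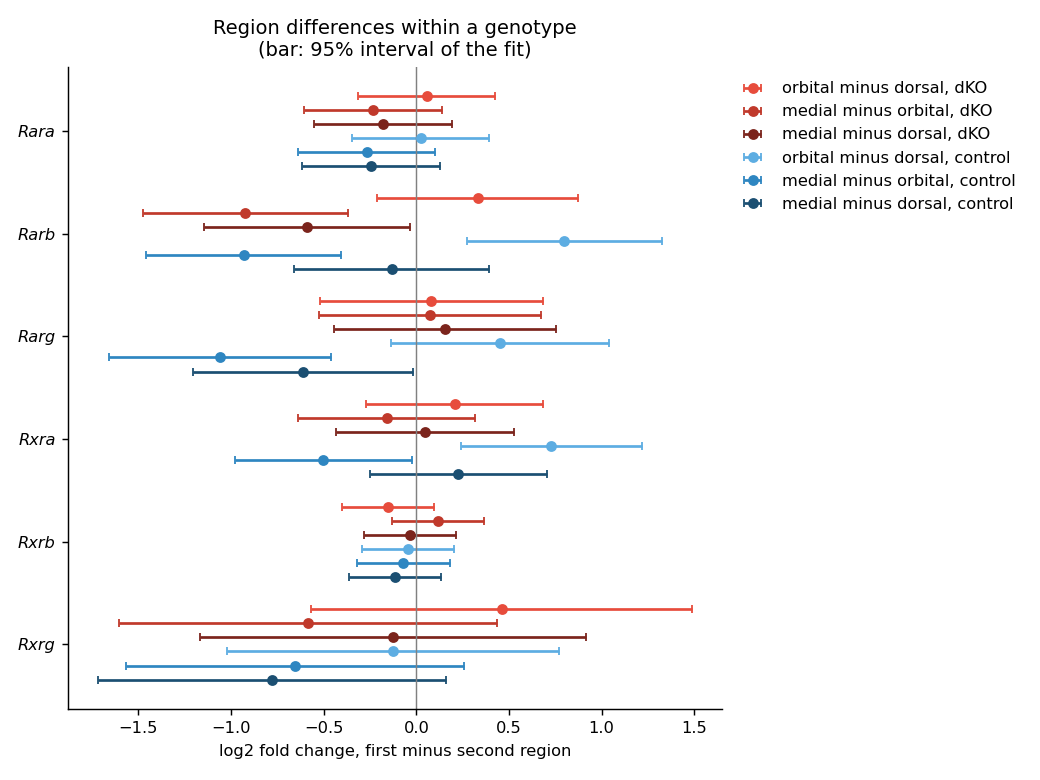
Differences between regions within dKO (red, upper 3 of each gene) and within control libraries (blue, lower 3) for the 6 receptor genes, as log2 fold changes of the edgeR fit with the row as a block; bars are 95% intervals. The control intervals of Rarb exclude 0 for orbital minus dorsal (0.80) and medial minus orbital (-0.93), and the intervals of Rara and Rxrb include 0 in all 6 comparisons.

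Whether the effect of the double mutation differed between regions was tested as an interaction. The difference of the log2 fold change, dKO over control, in medial minus orbital tissue was 1.14 for Rarg (SE 0.394, unadjusted p = 0.0121, edgeR adjusted p = 0.130) and 0.01 for Rarb (SE 0.384, edgeR adjusted p = 0.992). edgeR called 0 of 6 members (1.47% of all genes), with Rarg the single member at an unadjusted p under 0.05 (20.6% of all genes). In medial minus dorsal and in orbital minus dorsal tissue edgeR called 0 members, with 0 of all genes called in either (0%). At an unadjusted p under 0.05 there were 0 members and 969 genes (5.17%) in medial minus dorsal and 0 members and 2363 genes (12.6%) in orbital minus dorsal tissue. DESeq2 and limma-voom called 0 members in the 3 interactions.

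The other genes of retinoic acid signalling were counted from 6 lists, 42 of whose 45 genes passed the filter on low counts. In dKO over control, 0 of 42 passed in orbital, dorsal and summed data, where 0.0374%, 0.0214% and 0.0249% of all genes were called. In medial tissue 1 was higher and 1 lower, where 2.08% of all genes were called. Dhrs4, a dehydrogenase that acts on retinal among other substrates, rose in medial dKO tissue, with 12.3 ± 1.73 CPM in dKO and 6.46 ± 0.923 CPM in control libraries (SD, n = 3 each, log2 fold change 0.85, SE 0.209, edgeR adjusted p = 0.0458). Thrb, the beta receptor for thyroid hormone and a partner of RXR proteins, fell in medial dKO tissue, with 5.13 ± 0.485 CPM in dKO and 10.9 ± 3.49 CPM in control libraries (log2 fold change -1.16, SE 0.268, edgeR adjusted p = 0.0346). Progenitor and dividing cell markers, 12 genes, summed to 1222 to 1889 CPM in medial dKO and 690 to 913 CPM in medial control libraries, and their part in these values was not tested. The number of genes called in medial tissue, 389 with all libraries, was 19 without set A, 121 without set B and 11 without set C.

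Of the list of retinoic acid target genes 7 of 8 were measured, and none was called in dKO over control. All 7 had a negative log2 fold change in orbital tissue, with a median of -0.66 against -0.03 for all genes, and 4 of 7 were negative in medial, 3 of 7 in dorsal and 4 of 7 in summed data. In the same orbital comparison all 10 meningeal markers (median -0.72) and all 10 microglia markers (median -0.60) were negative, and their part in the values of the target genes was not tested. The carrier Crabp2, which brings retinoic acid to the nucleus, had 11.8 ± 3.96 CPM in orbital dKO and 34.2 ± 6.54 CPM in orbital control libraries (log2 fold change -1.53, SE 0.424, edgeR adjusted p = 0.162). Both measured Cyp26 genes, whose enzymes degrade retinoic acid, had negative values in all 3 regions. Cyp26b1 had 20 ± 8.55 CPM in orbital dKO and 31.7 ± 11.5 CPM in orbital control, 8.92 ± 2.54 CPM in medial dKO and 27.9 ± 11.9 CPM in medial control, and 13.9 ± 12.9 CPM in dorsal dKO and 27.5 ± 10.4 CPM in dorsal control libraries. Its summed log2 fold change was -1.13 (SE 0.191, unadjusted p = 0.00033, edgeR adjusted p = 0.295).

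Receptor coregulators, 10 genes, had 8 positive values in orbital dKO over control (median 0.28), and 0 positive in medial (median -0.16) and 1 in dorsal tissue (median -0.17), and none was called. Nrip1, a ligand-dependent corepressor, had 369 ± 108 CPM in orbital dKO and 203 ± 76.6 CPM in orbital control libraries (log2 fold change 0.88, SE 0.218, edgeR adjusted p = 0.148). Its medial value had the opposite sign, with 199 ± 8.60 CPM in dKO and 287 ± 26.2 CPM in control libraries (log2 fold change -0.62, SE 0.217, edgeR adjusted p = 0.168). The difference between these effects, medial minus orbital, passed the test (-1.50, SE 0.291, edgeR adjusted p = 0.0303), as did those of Dhrs3 (1.54, SE 0.290, edgeR adjusted p = 0.029), Dhrs4 (1.23, SE 0.229, edgeR adjusted p = 0.0278) and Crabp2 (1.62, SE 0.315, edgeR adjusted p = 0.0303). For Rarg, whose interaction of 1.14 was positive as those of Dhrs3, Dhrs4 and Crabp2 were, the test was not passed. With rows or sets left out, 0 to 1472 of all genes were called in this interaction, against 275 with all libraries. The calls of Nrip1, Dhrs3, Dhrs4 and Crabp2 therefore did not hold in every one of these fits. In this interaction 10 of 10 meningeal markers (median 1.05, 0 called) and 10 of 10 microglia markers (median 0.99, 1 called) were positive too, and their part was not tested.

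Between regions in controls the same lists had 8 of 42 genes higher and 5 lower in orbital over dorsal tissue, where 15.8% of all genes were called. The higher ones included Crabp2 (log2 fold change 1.56, SE 0.224, edgeR adjusted p = 0.0017) and, among the synthesis genes, Dhrs4 (1.14, SE 0.164, edgeR adjusted p = 0.0017), the retinal-producing enzyme gene Rdh10 (0.93, SE 0.184, edgeR adjusted p = 0.00641) and Aldh1a2, the main retinoic acid synthase of the meninges (1.20, SE 0.250, edgeR adjusted p = 0.00787). All 5 lower ones were coregulators, among them Ncor1, a corepressor of unliganded receptors (-0.57, SE 0.115, edgeR adjusted p = 0.00708). In medial over orbital controls 1 was higher and 9 were lower, where 9.02% of all genes were called. Among the lower ones was Stra6, a receptor for the carrier of retinol, at 25.8 ± 19 CPM in medial and 91.4 ± 13.1 CPM in orbital controls (log2 fold change -2.00, SE 0.365, edgeR adjusted p = 0.0101). Rarb was higher in orbital than in dorsal or medial controls, as were Crabp2, Rdh10, Dhrs4 and Aldh1a2. Meningeal and microglia markers moved the same way, with 6 and 7 of 10 called higher in orbital over dorsal controls. In medial over orbital controls 6 and 5 of 10 were called lower. The part of these cell types in the values of the listed genes was not tested.

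The genes whose log2 CPM was most like that of each member over the 9 control libraries were taken from 11058 genes, as a description that shares libraries, depth and set differences with the member and carries no test. For Rarb these were Phldb2 (Pearson r 0.963), Lpar1 (0.961) and Arfip1 (0.951). For Rarg they were Arhgef1 (0.963), Rbms1 (0.960) and Sardh (0.956), and for Rara Gper1 (0.936), Relb (0.926) and Trmt2b (0.909). For Rxra they were Wtip (0.952), Pxk (0.95) and Adm (0.942), for Rxrb Psmc4 (0.968), Eif6 (0.958) and Yipf1 (0.954), and for Rxrg Igf2bp3 (0.918), Magt1 (0.901) and Wdr44 (0.899).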

How the data were processed

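RNA of 18 libraries was measured. The authors deposited raw counts of fragments per gene. Per the file headers, featureCounts 1.6.2 counted read pairs, ignoring strand, in Ensembl gene models of GRCm38, and per the submitters' processing notes STAR 2.6 aligned the reads. Of 24 columns of per-sample values, 18 matched a sample, and the 6 that matched none were not used. Symbols were taken from GENCODE M21 by identifier for 54409 of 54532 genes. FPKM was computed from the counts, the library total and the exon bases per gene that the authors deposited beside them.

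Counts were tested in R 4.3.3 with edgeR 4.0.16 (quasi-likelihood F test, TMM, filterByExpr, min.count 10 and min.total.count 15) over all genes, with Benjamini-Hochberg adjustment. Regions were fitted with 6 group means and the title prefix, which leaves the libraries of a row as independent. Counts summed per row were fitted with genotype and prefix, and comparisons between regions with the row (prefix and index) as a block. The labels do not say that a row is a single brain. Libraries of a row deviated together in all 6 rows, with a correlation of deviations from group means of 0.364 to 0.865. DESeq2 1.42.0 and limma-voom (limma 3.58.1) were alternatives. Differences within a set were taken on log2 CPM with TMM scaling and a prior count of 2. The fits were tested on simulated counts with independent libraries and no row, set or prefix effect, so that test does not cover such effects. Intervals are those of the fit. Figures were drawn with matplotlib 3.10.9. The precision of a count rests on the depth: 1 fragment was worth 0.0107 to 0.0345 CPM.

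The members and lists were chosen with earlier results of these data known. Of each pathway list the text names members past the test, at most 3 per comparison, or else the single one with the lowest p, and for each member the 3 most similar genes of at least 5 CPM in controls. Sequences are from RefSeq and GENCODE. Reads with several alignments and altered exons were not analysed here. Some genes of the lists are counted but not reported here by name.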

Additional observations from a re-analysis of the deposited data

How the results depend on the processing

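Alternatives were other size factors (RLE), no filter on low counts, DESeq2, limma-voom, an adjusted p under 0.01, no title prefix, the set as a block and each row left out. Leaving out a whole set, leaving set B controls out of the RXR sums and using the unshared exon bases of Rarb were chosen after seeing the data. Of 1194 alternative fold changes of members, 1147 kept their side of the threshold, 39 lost a call, 8 gained one and none turned past it. Only the calls of Rarb, Rarg and Rxra between control regions could be lost, since every other result was uncalled in the main fits. The 1147 are therefore no measure of how stable those calls were. In dKO over control edgeR called 0 members in each comparison, against 1 in orbital and 1 in medial tissue with DESeq2 (Rarb), 1 in dorsal tissue with no filter (Rxrg, -3.31, adjusted p = 0.015) and 1 in summed data with DESeq2 (Rarb, -1.31, SE 0.318, adjusted p = 0.00602). Rows left out gave 0 to 1 members in orbital and in medial tissue: Rarb was called without the set A control row (-1.8 in both, adjusted p = 0.0325 and 0.0257) and, in medial tissue, without the set A dKO row (-1.96, adjusted p = 0.0341). Without the set B control row the summed Rarb value was -1.07. Over all 16 alternatives the adjusted p of Rarb ran from 0.00602 to 1 in summed data, from 0.0193 to 0.905 in orbital and from 0.0116 to 0.39 in medial tissue. In controls, orbital minus dorsal had 0 members at 0.01 and 1 with no filter (Rxra), medial minus orbital 0 at 0.01, and rows or sets left out gave 0 to 2 and 0 to 1 members.

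The main tests did not use sets as pairs, and the 9 pairs of a set and region are a description from 3 rows per genotype. Deviations of dKO and control libraries of a set correlated at 0.227 to 0.565 in orbital and 0.156 to 0.503 in dorsal tissue. In medial tissue they correlated at -0.214 to 0.0724. With the set as a replicate block Rarb was called in medial tissue (1 member, -1.37, adjusted p = 0.0476), and no other member was called in a comparison of genotypes. With no replicate block 0 members were called in orbital minus dorsal and in medial minus orbital controls. Counts of all genes moved more: 7 in orbital dKO over control against 430 with DESeq2 and 122 with no filter, 389 in medial against 1118 and 565, 4 in dorsal against 81 and 26, and 5 in summed data against 359 and 65. With rows or sets left out these counts ran from 5 to 789 in orbital (789 without the set B control row), from 11 to 403 in medial, from 3 to 29 in dorsal and from 4 to 45 in summed data. Levels per length moved beyond 1 SD in 3 groups with TMM sizes and in the 6 Rarb groups with unshared bases. Depth limits Rxrg most, with 13 fragments in its lowest libraries.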
